A study of Mus musculus with 10 samples.

Results

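The matrix metalloproteinases (MMP), the ADAM and ADAMTS proteinases and the tissue inhibitors of metalloproteinases (TIMP) were followed across sorted cells of the adult mouse lung mesenchyme. Members were all genes whose Ensembl identifier maps to a symbol made of Mmp, Adam, Adamts or Timp and a number, with at most 1 letter after it. The rule used no measured value and found 46 of the 14854 genes in the tables: 12 MMP, 16 ADAM, 14 ADAMTS and 4 TIMP genes.

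RNA-seq was done on 10 libraries, 2 for each of 5 lineages sorted by fluorescence. A mouse line with the alleles Axin2CreERT2, tdT and PdgfraEGFP gave 4 of the lineages: Axin2:Pdgfra (tdT and EGFP positive), Axin2 (tdT alone), Pdgfra (EGFP alone) and Negative (neither reporter). The fifth lineage, Wnt2, came from another line, Wnt2CreERT2:R26REFYP, so that line and lineage cannot be told apart for it. CreERT2 is a recombinase that tamoxifen activates in cells using the driver gene, and the mark then stays in their descendants, whereas PdgfraEGFP marks cells that use the Pdgfra locus. A tamoxifen schedule is not given in the sources used here. Labels name libraries 1 and 2 in every group except Negative, where they are 0 and 2. The library called Pdgfra 1 here carries a title that names EGFP and not Pdgfra, and was placed by its lineage label, GFP. The labels do not say whether libraries were separate animals. The p-values therefore measure only the spread between these libraries, which may be technical. In Negative and in Wnt2 the 2 libraries also differed in Xist and Y-linked transcripts, given below. The spread in those groups thus takes in a difference of sex or of a mix of sexes.

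MMPs are zinc endopeptidases that are secreted or held at the cell surface and cleave collagens, elastin and other matrix proteins. ADAMTS enzymes are secreted proteinases that trim proteoglycans, procollagens and microfibril proteins, while most active ADAMs sit in the membrane and release the outer parts of other membrane proteins. TIMPs block the active site of MMPs, and Timp3 also blocks several ADAM and ADAMTS enzymes. In the lung these families are known from alveolar development, emphysema and fibrosis.

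Values were log2 signals, with medians of 9.1 to 9.11 in the 10 libraries. Each library had its own lowest value, from 1 to 2.67, shared by 2.1% to 18.4% of genes. A gene at that value is described here as listed at the lowest value. The tables hold no counts, so depth is unknown. Signals of a marker list were summed and put on the log2 scale, so that the most abundant markers weigh most. For 10 fibroblast markers these sums were 17.76 and 18.06 in Axin2:Pdgfra, 17.19 and 17.9 in Pdgfra, 17.12 and 17.4 in Wnt2, 16.42 and 16.43 in Axin2, and 14.88 and 15.5 in Negative. Pericyte markers were highest in Axin2 (18.21 and 18.55). Epithelial markers (17.7 and 17.8) and erythroid markers (16.02 and 16.5) were highest in Negative, although all 10 libraries are labelled as lung mesenchyme. Xist stood at 8.57 in Negative 2 and 7.81 in Wnt2 2, against 16.68 to 17.72 in the other 8 libraries. The Y-linked gene Ddx3y read 10.74 and 11.48 in these 2 libraries and 8.15 in Wnt2 1, and was at the lowest value in the other 7.

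Of the 46 members, 29 were above the lowest value in every library and 21 had a log2 level of at least 6 in all 10. Those 21 were 10 of 14 ADAMTS genes, 5 of 16 ADAM genes, 4 of 12 MMP genes and 2 of 4 TIMP genes. The number of members listed at the lowest value ran from 0 in Wnt2 1 to 11 in Negative 2. A filter of at least 6 in at least 2 libraries left 45 members among 14177 genes tested, and only Adam32, an ADAM known from sperm, did not pass it.

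**Figure D1:**
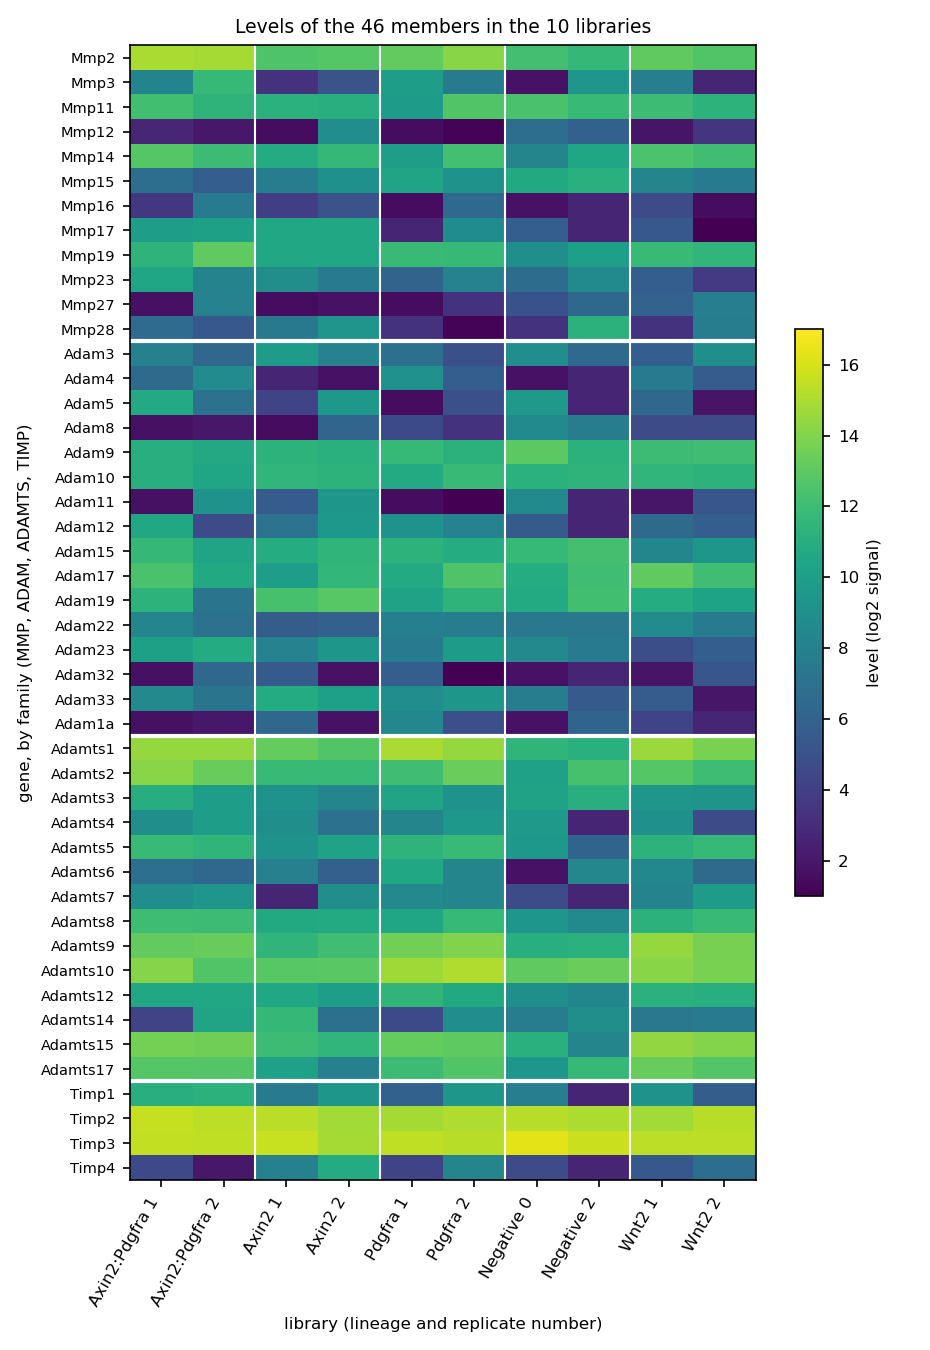
Log2 level of each of the 46 members (rows, by family) in each of the 10 libraries (columns, by lineage); colour gives the log2 signal. The ADAMTS block holds 10 genes at 6 or more in every library, while 17 members of the 4 families reach the lowest value in at least 1 library.

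Differences among the lineages that passed a test were mainly in ADAMTS genes, although their group means were not the furthest apart. Among tested members the median range of group means was 3.14 log2 units for ADAMTS, 4.62 for MMP, 4.5 for ADAM and 3.34 for TIMP genes. More of the ADAMTS genes stood at 6 or more in every library, as given above. The part of level and of spread between libraries in these calls was not tested. The limma F-test over the 5 lineages passed 10 of 45 members at a Benjamini-Hochberg adjusted p under 0.05, against 8.2% of all genes tested, and 20 members at an unadjusted p under 0.05, against 23.9%. The 10 were 7 ADAMTS genes (Adamts1, Adamts5, Adamts8, Adamts9, Adamts10, Adamts15, Adamts17), Mmp2, Mmp19 and Adam15. Of these 10, 7 had their lowest group mean in Negative, 2 in Axin2 and 1 in Wnt2. The highest group was Axin2:Pdgfra for 4, Wnt2 for 3, Pdgfra for 2 and Negative for 1. Leaving out single libraries gave 4 (without Axin2 2) to 10 members, with 5 without Axin2 1 or Wnt2 1 and 6 without Pdgfra 1 or Wnt2 2. It fell to 6 without Negative 2 and Wnt2 2 together, and to 0 with the variance model that uses neither trend nor robust estimation.

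ADAMTS genes were higher in cells with the Pdgfra label. The mean of Axin2:Pdgfra and Pdgfra was set against the mean of Axin2 and Negative, 4 libraries against 4 of a single mouse line. By limma, 11 of 45 members were higher and 0 lower, against 3.55% of all genes higher, 2.93% lower and 6.48% in either direction. At an unadjusted p under 0.05 there were 15 members higher and 5 lower, against 20.4% of all genes in either direction. ADAMTS genes made up 8 of the 11 (8 of 14 in the family), MMPs 2, ADAMs 1 and TIMPs 0. The median difference was 2.02 log2 units over the 14 ADAMTS genes and 0.5 over the 45 members, against 0.0 over all genes.

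Adamts1, a secreted proteinase that cleaves the proteoglycans versican and aggrecan, showed the smallest p. Its log2 level was 14.44 and 14.48 in Axin2:Pdgfra, 14.96 and 14.46 in Pdgfra, 13.24 and 12.66 in Axin2, 11.47 and 11.17 in Negative, and 14.58 and 13.75 in Wnt2. All 4 Pdgfra-labelled libraries lay above all 4 others of that line, and Negative was the lowest group. The difference was 2.45 ± 0.25 log2 units (SE; adjusted p = 4.97e-05), or 5.46-fold. Fewer cells of a type and less RNA per cell cannot be told apart in sorted bulk libraries, here or for any gene below.

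Adamts9, which also cleaves versican and aggrecan, followed. It read 13.13 and 13.31 in Axin2:Pdgfra, 13.62 and 13.94 in Pdgfra, 11.45 and 12.09 in Axin2, 11.03 and 11.21 in Negative, and 14.44 and 13.71 in Wnt2. The labelled and unlabelled libraries did not overlap, and the difference was 2.05 ± 0.26 (adjusted p = 0.000374). Adamts15, another versican-cleaving enzyme, read 13.63 and 13.53 in Axin2:Pdgfra, 13.23 and 13.05 in Pdgfra, 11.98 and 11.51 in Axin2, 11.17 and 8.31 in Negative, and 14.38 and 14.03 in Wnt2. Its groups did not overlap either, with Negative 2 far below Negative 0, and the difference was 2.62 ± 0.46 (adjusted p = 0.00323). For Adamts5, the main aggrecan-degrading enzyme of mouse cartilage, the values were 11.86 and 11.48 in Axin2:Pdgfra, 11.41 and 11.83 in Pdgfra, 9.18 and 10.22 in Axin2, 9.51 and 6.18 in Negative, and 11.32 and 11.69 in Wnt2. The 4 labelled libraries lay close together, above those of Axin2 and Negative and level with Wnt2, and the difference was 2.87 ± 0.62 (adjusted p = 0.012). It missed the threshold without Axin2 1 or Pdgfra 2.

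Adamts8, a member of the same proteoglycan-cleaving branch, read 12.04 and 11.97 in Axin2:Pdgfra, 10.43 and 11.72 in Pdgfra, 10.71 and 10.79 in Axin2, 9.4 and 8.64 in Negative, and 11.3 and 11.82 in Wnt2. Pdgfra 1 lay below both Axin2 libraries, so the groups overlapped; the difference was 1.65 ± 0.42 (adjusted p = 0.028). It held only without Pdgfra 1 or Negative 0 among the 10 fits that each left out a library. Adamts4, an aggrecanase, was the one tested gene of that branch that did not pass, at 2.09 ± 1.40 (adjusted p = 0.44). Its levels were 8.29 to 9.91 in the labelled libraries and 7.06 to 9.59 in 3 of the others, while Negative 2 listed it at the lowest value.

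Among ADAMTS genes with other substrates, Adamts17, linked to fibrillin microfibrils, read 12.77 and 12.7 in Axin2:Pdgfra, 11.96 and 12.67 in Pdgfra, 10.13 and 7.95 in Axin2, 9.38 and 11.69 in Negative, and 13.26 and 12.7 in Wnt2. The groups did not overlap, though Negative 2 came close to Pdgfra 1, and the difference was 2.73 ± 0.54 (adjusted p = 0.00666). Adamts10, another fibrillin-binding member, was highest in Pdgfra (14.69 and 15.07) and read 14.11 and 12.66 in Axin2:Pdgfra, 12.84 and 12.89 in Axin2, 13.11 and 13.35 in Negative, and 14.15 and 13.77 in Wnt2. Axin2:Pdgfra 2 was the lowest of the 10 libraries, so here the labelled libraries overlapped the others; the difference was 1.08 ± 0.28 (adjusted p = 0.0321). Without Axin2:Pdgfra 1, Negative 0 or any of the 4 Axin2 and Pdgfra libraries it did not pass. Adamts2, which removes the N-propeptide of fibrillar procollagens, read 14.15 and 13.29 in Axin2:Pdgfra, 12.11 and 13.32 in Pdgfra, 11.83 and 11.85 in Axin2, 10.15 and 12.34 in Negative, and 12.75 and 12.06 in Wnt2. Negative 2 exceeded Pdgfra 1, and the difference was 1.68 ± 0.44 (adjusted p = 0.0341), which did not pass without Axin2:Pdgfra 1, Axin2 1, Axin2 2, Pdgfra 2 or Negative 0. With the second index sequence of the library, taken from the labels, as a block, Adamts10 (adjusted p = 0.0526) and Adamts2 (adjusted p = 0.0531) missed the threshold. The other procollagen N-proteinase tested with a level of at least 6 in all libraries, Adamts3, did not pass (0.42 ± 0.55, adjusted p = 0.723).

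Adamts7 and Adamts12, a pair known to cleave cartilage oligomeric matrix protein, gave values of 4.02 ± 1.31 (adjusted p = 0.0894) and 1.39 ± 0.44 (adjusted p = 0.0824). Adamts7 read 8.83 and 9.32 in Axin2:Pdgfra, 8.52 and 8.26 in Pdgfra, 2.64 and 8.92 in Axin2, and 4.64 in Negative 0. Negative 2 listed Adamts7 at the lowest value, and Axin2 2 lay above both Pdgfra libraries. Adamts12 read 10.53 to 11.45 in the labelled libraries, 10.55 and 9.91 in Axin2, and 8.96 and 8.33 in Negative. Adamts6 gave 1.99 ± 1.38 (adjusted p = 0.464), with Negative 0 at the lowest value and Negative 2 at 8.38. Of the 14 ADAMTS differences 13 were positive, 1 was negative (Adamts14) and 0 were lower at an unadjusted p under 0.05.

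**Figure D2:**
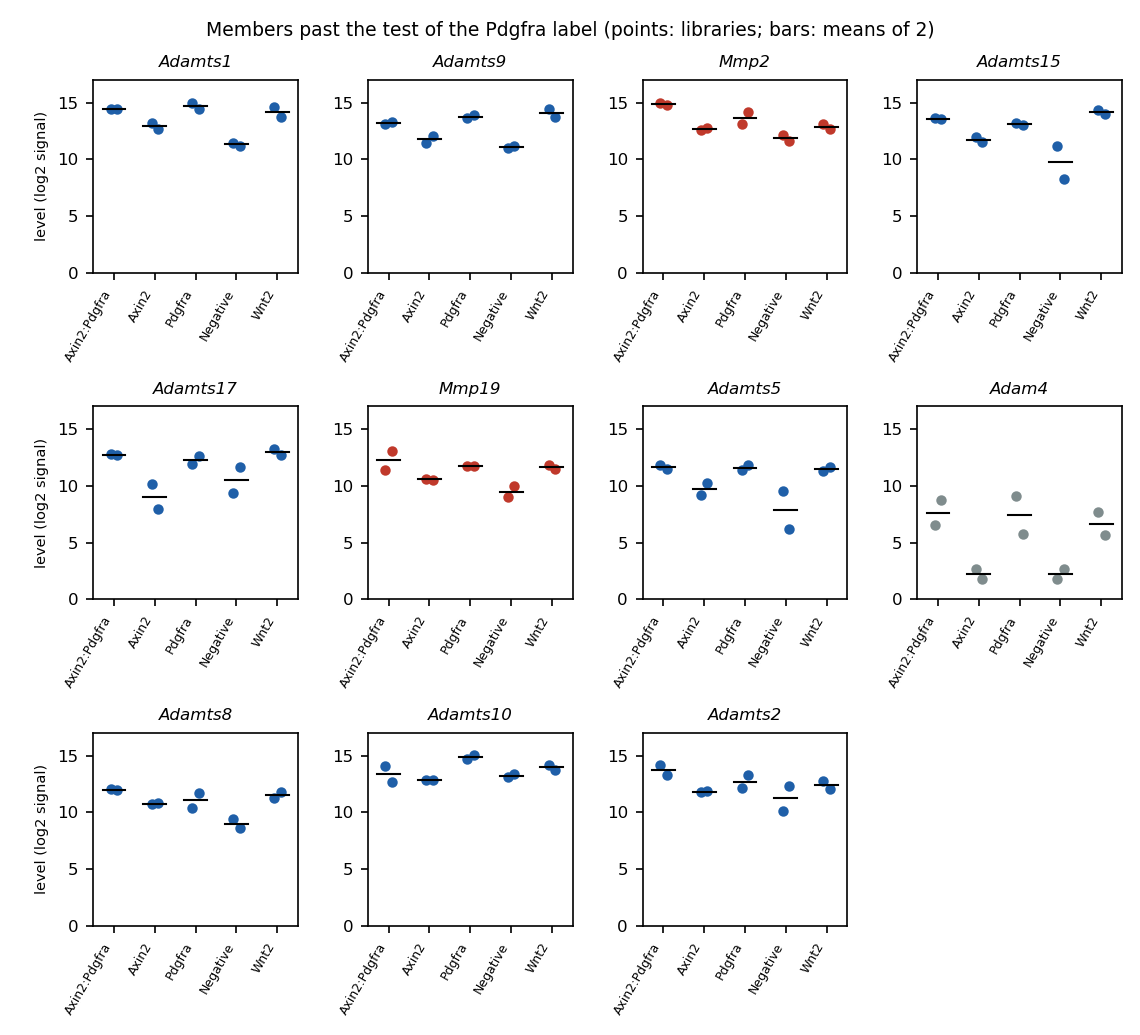
Log2 level of the members that passed the Pdgfra label test, one panel a gene, by lineage; points are libraries and bars are means of 2. Adamts1, Adamts9, Adamts15, Adamts5 and Adamts17 show 4 Pdgfra-labelled libraries above the 4 Axin2 and Negative libraries.

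All 10 fibroblast markers, Pdgfra itself among them, were also higher with the Pdgfra label, 8 of 10 pericyte, 4 of 8 smooth muscle, 4 of 6 tested mesothelial and 5 of 12 epithelial markers were lower, 1 mesothelial marker was higher, and 0 of 10 tested leukocyte markers passed in either direction. The part of these markers in the ADAMTS differences was not tested. Leaving out single libraries gave 6 (without Axin2 1 or Pdgfra 2) to 12 members. Adamts1, Adamts9, Adamts15, Adamts17 and Mmp2 passed in all 10 such fits, and 3 of the 11 members (Adamts1, Adamts9 and Adam4) passed when the variance model used neither trend nor robust estimation.

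The labelled and unlabelled groups can be compared without shared libraries in both backgrounds. Within Axin2-labelled cells (Axin2:Pdgfra minus Axin2), 3 members were higher and 0 lower, against 0.924% of all genes higher and 2.3% in either direction. At an unadjusted p under 0.05 there were 13 members, against 14.1% of all genes. The 3 were Mmp2 (2.21 ± 0.37, adjusted p = 0.00654), Adamts17 (3.69 ± 0.76, adjusted p = 0.021) and Adamts1 (1.51 ± 0.35, adjusted p = 0.039). Without Axin2 labelling (Pdgfra minus Negative), 6 members were higher and 0 lower, against 2.03% of all genes higher and 2.91% in either direction. At an unadjusted p under 0.05 there were 19 members, against 17.6% of all genes. The 6 were Adamts1 (3.39 ± 0.35, adjusted p = 0.000407), Adamts9 (2.66 ± 0.37, adjusted p = 0.002), Adamts15 (3.40 ± 0.65, adjusted p = 0.0114), Mmp2 (1.72 ± 0.37, adjusted p = 0.0243), Adamts5 (3.78 ± 0.88, adjusted p = 0.035) and Adamts10 (1.65 ± 0.39, adjusted p = 0.0389).

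Adamts1 and Mmp2 passed in both backgrounds. With the second index sequence of the library as a block, Adamts1 missed the threshold within Axin2-labelled cells (adjusted p = 0.0526). There 3 of 10 fibroblast markers were higher, and 8 of 10 pericyte and 4 of 8 smooth muscle markers were lower. In Pdgfra minus Negative 8 of 10 fibroblast markers were higher, and 3 of 10 pericyte, 2 of 12 epithelial and 3 of 5 tested erythroid markers were lower. The part of these markers was not tested. The difference between the backgrounds was tested by the interaction, which passed 0 members at an adjusted p under 0.05 by limma with 0.0% of all genes called, and 7 at an unadjusted p under 0.05, against 9.14% of all genes; for Adamts1 it was -1.88 ± 0.49 (adjusted p = 0.36). Across 45 members Pearson's r between the 2 sets of differences was 0.41 and Spearman's rho 0.39, with the same sign in 32 (71.1%). Across all 14177 genes they were 0.29 and 0.24, with the same sign in 58.3%. Genes are not independent replicates, and all differences come from 1 fit. The first count ran from 0 (without Axin2 2) to 6 (without Negative 0 or Negative 2) and was 1 without Axin2:Pdgfra 2 or Axin2 1. The second ran from 2 (without Pdgfra 2) to 7, with 3 without Pdgfra 1, and was 3 when only Pdgfra and Negative entered the fit. Adamts1 and Adamts9 passed the second in all 10 fits that left out a library, and 0 of the 3 genes passed the first in all 10. Without Negative 2, which left 1 library in that group, Pdgfra minus Negative was 1.97 for Adamts15, 2.11 for Adamts5 and 1.45 for Mmp2. Adamts5 and Mmp2 lost their calls there. With only Pdgfra and Negative in the fit, Adamts15, Adamts5 and Mmp2 did not pass.

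**Figure D3:**
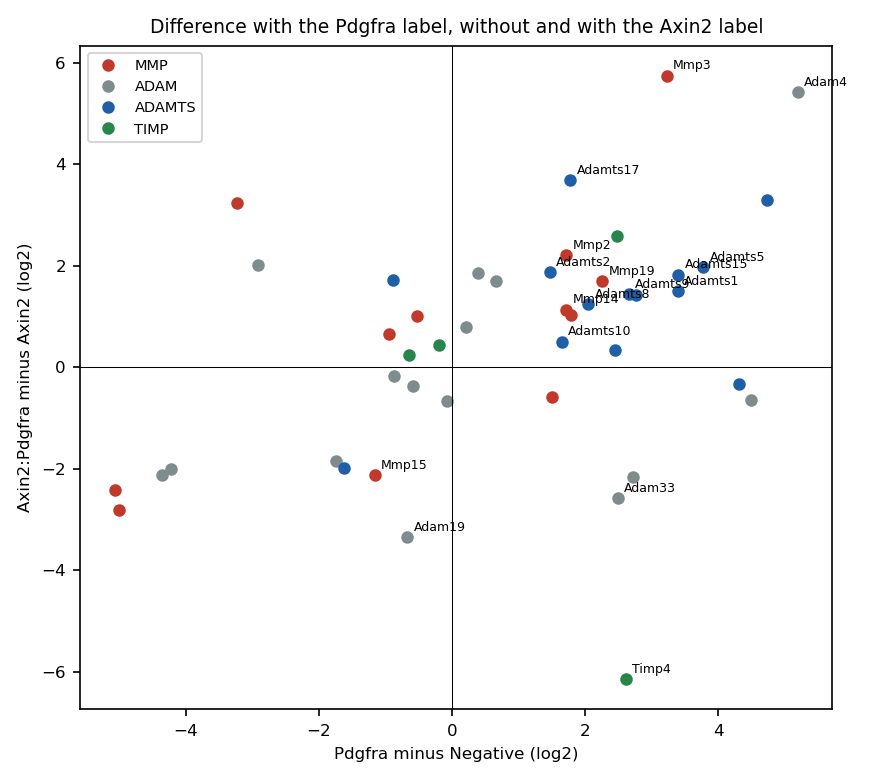
Log2 difference of Axin2:Pdgfra minus Axin2 (vertical axis) against Pdgfra minus Negative (horizontal axis) for the 45 tested members, coloured by family. Adamts1 and Mmp2, which passed both tests, are positive on both axes, and Timp4 is lowest on the vertical axis. The sign is the same on both for 32 members (71.1%), against 58.3% of all genes tested.

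Several of these ADAMTS genes are neighbours on the chromosome. In the order of protein-coding genes in RefSeq (GRCm38.p6), Adamts1 and Adamts5 are next to each other on chromosome 16, and Adamts15 and Adamts8 on chromosome 9. All 4 passed the Pdgfra label test. Adam3, Adam5, Adam32 and Adam9 also form a run, on chromosome 8, and 0 of these 4 passed it (Adam32 was not tested). Whether the authors' counting used strand is not given in the sources used here.

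RefSeq's promoter table (GRCm38.p6, while the deposited values used mm9) held 27 of the 46 members, in 31 windows of 250 bases before a gene start. Promoters of the 4 ADAMTS genes in it that rose with the Pdgfra label are shown because these genes shared that call, 5′ to 3′ on the gene's strand, with that of Mmp3, which held both an AP-1 and a TATA box match. Capitals mark matches to the motifs searched on both strands: AP-1 (TGACTCA), CRE (TGACGTCA), TATA box (TATAAA), GC box (GGGCGG) and TCF/LEF (CTTTGAT).
Adamts1, chr16:85803114-85803363, minus strand: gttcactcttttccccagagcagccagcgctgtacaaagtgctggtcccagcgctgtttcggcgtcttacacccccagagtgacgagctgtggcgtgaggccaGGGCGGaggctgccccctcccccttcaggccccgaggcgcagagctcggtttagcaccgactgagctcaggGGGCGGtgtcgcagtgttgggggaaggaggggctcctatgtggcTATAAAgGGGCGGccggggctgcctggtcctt
Adamts2, chr11:50601835-50602084, plus strand: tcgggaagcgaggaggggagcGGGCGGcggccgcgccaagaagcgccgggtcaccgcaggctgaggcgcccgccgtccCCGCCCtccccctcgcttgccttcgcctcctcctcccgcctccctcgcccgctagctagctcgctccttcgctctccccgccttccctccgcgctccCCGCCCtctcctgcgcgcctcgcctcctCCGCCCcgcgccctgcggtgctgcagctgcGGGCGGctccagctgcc
Adamts9, chr6:92943535-92943784, minus strand: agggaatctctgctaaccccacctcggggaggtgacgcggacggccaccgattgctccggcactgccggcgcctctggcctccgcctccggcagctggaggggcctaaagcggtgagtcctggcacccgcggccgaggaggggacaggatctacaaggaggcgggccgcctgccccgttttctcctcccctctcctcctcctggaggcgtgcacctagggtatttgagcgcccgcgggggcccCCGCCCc
Adamts17, chr7:66839485-66839734, plus strand: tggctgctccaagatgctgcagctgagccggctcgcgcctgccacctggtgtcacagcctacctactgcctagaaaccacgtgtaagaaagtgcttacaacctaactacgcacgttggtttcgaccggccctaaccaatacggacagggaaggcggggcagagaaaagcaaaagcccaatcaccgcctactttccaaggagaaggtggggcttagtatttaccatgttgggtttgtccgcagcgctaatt
Mmp3, chr9:7445572-7445821, plus strand: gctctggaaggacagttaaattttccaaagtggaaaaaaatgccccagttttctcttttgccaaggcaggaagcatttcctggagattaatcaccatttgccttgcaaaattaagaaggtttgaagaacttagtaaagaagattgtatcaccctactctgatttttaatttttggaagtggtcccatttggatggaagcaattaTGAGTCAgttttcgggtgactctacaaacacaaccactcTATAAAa
Adamts1 holds a TATA box 32 bases before its start and GC boxes at 147, 76 and 25, each counted from the match's first letter. Adamts2 holds 5 GC boxes, Adamts9 a GC box 7 bases before its start, and Adamts17 none of the 5 motifs. GC boxes occurred in 16 of 31 member windows (51.6%), against 32.7% of 32851 windows in the table, and TATA boxes in 2 (6.45%), against 12.4%. AP-1 matches were in 3 windows (Adam19, Mmp12, Mmp3; 9.68%), against 4.46%, and CRE and TCF/LEF matches in 0, against 1.55% and 3.21%. A match is a run of letters and not a shown binding site. None of the 5 motifs was present in all 4 ADAMTS windows shown.

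Mmp2 was the MMP with the clearest lineage pattern. Mmp2, gelatinase A, degrades denatured collagen and basement membrane collagen and is activated at the cell surface by Mmp14 together with Timp2. Its log2 level was 14.95 and 14.84 in Axin2:Pdgfra, 13.15 and 14.14 in Pdgfra, 12.59 and 12.8 in Axin2, 12.19 and 11.65 in Negative, and 13.12 and 12.65 in Wnt2. Axin2:Pdgfra stood above every other library, and the Pdgfra label difference was 1.97 ± 0.26 (adjusted p = 0.000528). Mmp14 (MT1-MMP), its activator, read 12.79 and 11.96 in Axin2:Pdgfra, 9.9 and 12.19 in Pdgfra, 10.85 and 11.63 in Axin2, 8.26 and 10.39 in Negative, and 12.46 and 12.12 in Wnt2. Negative held the lowest library and Pdgfra 1 lay below Negative 2, and the difference did not pass (1.43 ± 0.55, adjusted p = 0.153).

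Mmp19, a secreted MMP that cleaves basement membrane proteins, read 11.43 and 13.11 in Axin2:Pdgfra, 11.76 and 11.74 in Pdgfra, 10.6 and 10.54 in Axin2, 8.98 and 10.01 in Negative, and 11.8 and 11.5 in Wnt2. Labelled and unlabelled libraries did not overlap, and the Pdgfra label difference was 1.98 ± 0.43 (adjusted p = 0.012). The call was lost without Axin2:Pdgfra 2, Pdgfra 1 or Pdgfra 2. Without a value that passed, Mmp3 (stromelysin-1) reached 8.22 and 11.74 in Axin2:Pdgfra and 9.95 and 7.66 in Pdgfra, against 3.36 and 5.08 in Axin2 and 9.36 in Negative 2, while Negative 0 listed it at the lowest value (4.49 ± 1.69, adjusted p = 0.143).

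Other MMPs leaned the other way without passing. Mmp12, the macrophage elastase, was above the lowest value in both Negative libraries (6.76 and 5.97) and reached 8.85 in Axin2 2, but was at most 2.7 in the 4 Pdgfra-labelled libraries (-3.91 ± 1.63, adjusted p = 0.187). Mmp15 (MT2-MMP) read 10.71 and 11.18 in Negative, 10.37 and 9.19 in Pdgfra, 7.72 and 9.06 in Axin2, 6.77 and 5.77 in Axin2:Pdgfra, and 8.27 and 7.65 in Wnt2. Its order followed that of the epithelial marker sum except in Wnt2 (15.41 and 15.47 in Axin2:Pdgfra, 15.71 to 16.32 in Axin2, 16.54 to 17.13 in Pdgfra, 17.7 to 17.8 in Negative, 14.53 to 15.35 in Wnt2). The endothelial marker sum was 14.19 and 14.36 in Axin2:Pdgfra, 14.65 and 14.84 in Wnt2, 14.79 and 15.13 in Axin2, 16.14 and 16.16 in Pdgfra, and 15.65 and 17.02 in Negative. Group means of the endothelial and leukocyte sums stood in the order of the Mmp15 means, Wnt2 included. The part of epithelial, endothelial or leukocyte RNA in the Mmp15 levels was not tested. Mmp28 (epilysin) had the widest gap among the MMPs between 2 libraries of a group, at 3.36 and 11.31 in Negative, and gave -3.74 ± 1.69 (adjusted p = 0.226). Mmp11 (stromelysin-3) read 9.76 to 12.63, with group means 1.02 log2 units apart at most.

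Among the ADAM genes, 1 of 15 passed the Pdgfra label test. Adam4, a gene best known from testis, read 6.51 and 8.72 in Axin2:Pdgfra and 9.09 and 5.77 in Pdgfra, against 2.64 in Axin2 1, and was listed at the lowest value in Axin2 2, Negative 0 and Negative 2. It reached 6 in Axin2:Pdgfra 1, Axin2:Pdgfra 2, Pdgfra 1 and Wnt2 1 alone, so it entered the test only through libraries in which it was high. Its adjusted p of 0.026 is therefore a description, and no fold is given. Adam4 lost its call without Axin2:Pdgfra 2, Axin2 1, Axin2 2, Pdgfra 1 or Negative 0. Over all 4 families, 8 members had no overlap with higher labelled libraries (4.9% of all genes) and 0 with lower ones (3.96%): Adam4, Adamts1, Adamts5, Adamts9, Adamts15, Adamts17, Mmp2 and Mmp19. Without Adam4 there were 7 without overlap, and 10 members passed the Pdgfra label test.

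The sheddases Adam10, which processes Notch receptors and cadherins, and Adam17, which releases TNF and ligands of the EGF receptor, were read at 10.46 to 11.75 and 9.96 to 13.09 in all libraries. Neither passed a test: Adam10 gave -0.37 ± 0.36 for the Pdgfra label (95% interval -1.15 to 0.41) and Adam17 0.50 ± 0.54 (-0.64 to 1.65). Adam9, a membrane ADAM widely expressed in mesenchyme, ranged from 10.68 to 12.96 (-0.48 ± 0.39, adjusted p = 0.537). Adam19 (meltrin beta) was highest in Axin2 (12.36 and 12.85) and lowest in Axin2:Pdgfra 2 (7.14), and its Pdgfra label difference did not pass (-2.01 ± 0.71, adjusted p = 0.119). Adam12 (meltrin alpha) ranged from the lowest value in Negative 2 to 10.57 in Axin2:Pdgfra 1, while Axin2:Pdgfra 2 read 4.74. Adam11 read 9.16 in Axin2:Pdgfra 2, 5.65 and 9.46 in Axin2, 8.6 in Negative 0, and 1.95 and 5.29 in Wnt2. Axin2:Pdgfra 1, Pdgfra 1, Pdgfra 2 and Negative 2 listed it at the lowest value. Its Pdgfra label difference did not pass (-3.24 ± 1.87, adjusted p = 0.362). Adam8, known from leukocytes, read 8.59 and 7.81 in Negative and at most 6.22 elsewhere; Axin2:Pdgfra 1, Axin2:Pdgfra 2 and Axin2 1 had it at their lowest value. The leukocyte marker sum was 14.19 and 15.56 in Negative, 15 and 14.51 in Pdgfra, where Adam8 read 4.6 and 3.35, 14.14 and 13.2 in Axin2, and 13.18 and 13.76 in Axin2:Pdgfra. In Wnt2 the sum was 13.75 and 13.35, and Adam8 read 4.64 and 4.65. Most of the sum came from Lyz2, which read 14.88 and 14.37 in Pdgfra. The less abundant markers did not share a single order. Csf3r read 9.78 and 9.4 in Negative and 2.67 and 1.79 in Pdgfra, as Adam8 leaned, but 8.33 in Wnt2 1. Cd68 read 8.46 and 10.65 in Negative and 10.12 and 10.75 in Pdgfra. The part of leukocyte RNA in the Adam8 levels was not tested.

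TIMP genes passed neither the F-test nor any comparison by limma. At an unadjusted p under 0.05 there were 0 of 4 for the Pdgfra label and 1, Timp1, for the Axin2 label. Timp4 fell under that p in the F-test, Axin2:Pdgfra minus Axin2, Axin2 minus Negative and the interaction. Timp3 did so in Axin2 minus Negative, Pdgfra minus Negative and the interaction. Timp2 read 14.77 to 15.58 and Timp3, which also blocks ADAM and ADAMTS enzymes, 14.87 to 16.32 in all 10 libraries, with group means at most 0.52 and 0.77 log2 units apart. The Pdgfra label difference was 0.12 ± 0.18 for Timp2 (95% interval -0.26 to 0.50) and -0.19 ± 0.18 for Timp3 (-0.59 to 0.20). Timp1, an inhibitor induced in injury, was highest in Axin2:Pdgfra (11.02 and 11.3), read 7.68 and 9.47 in Axin2, 5.95 and 9.49 in Pdgfra, 9.2 and 5.7 in Wnt2 and 7.83 in Negative 0, and was at the lowest value in Negative 2. Both Axin2:Pdgfra libraries exceeded all others, and the difference for the Axin2 label was 3.38 ± 1.26 (adjusted p = 0.184). Timp4 read 8.05 and 10.85 in Axin2, 8.26 in Pdgfra 2, 6.8 in Wnt2 2, and at most 5.38 in the rest; Axin2:Pdgfra 2 and Negative 2 listed it at the lowest value. For Timp4 the interaction of the labels was -8.75 ± 2.75 (adjusted p = 0.424).

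**Figure D4:**
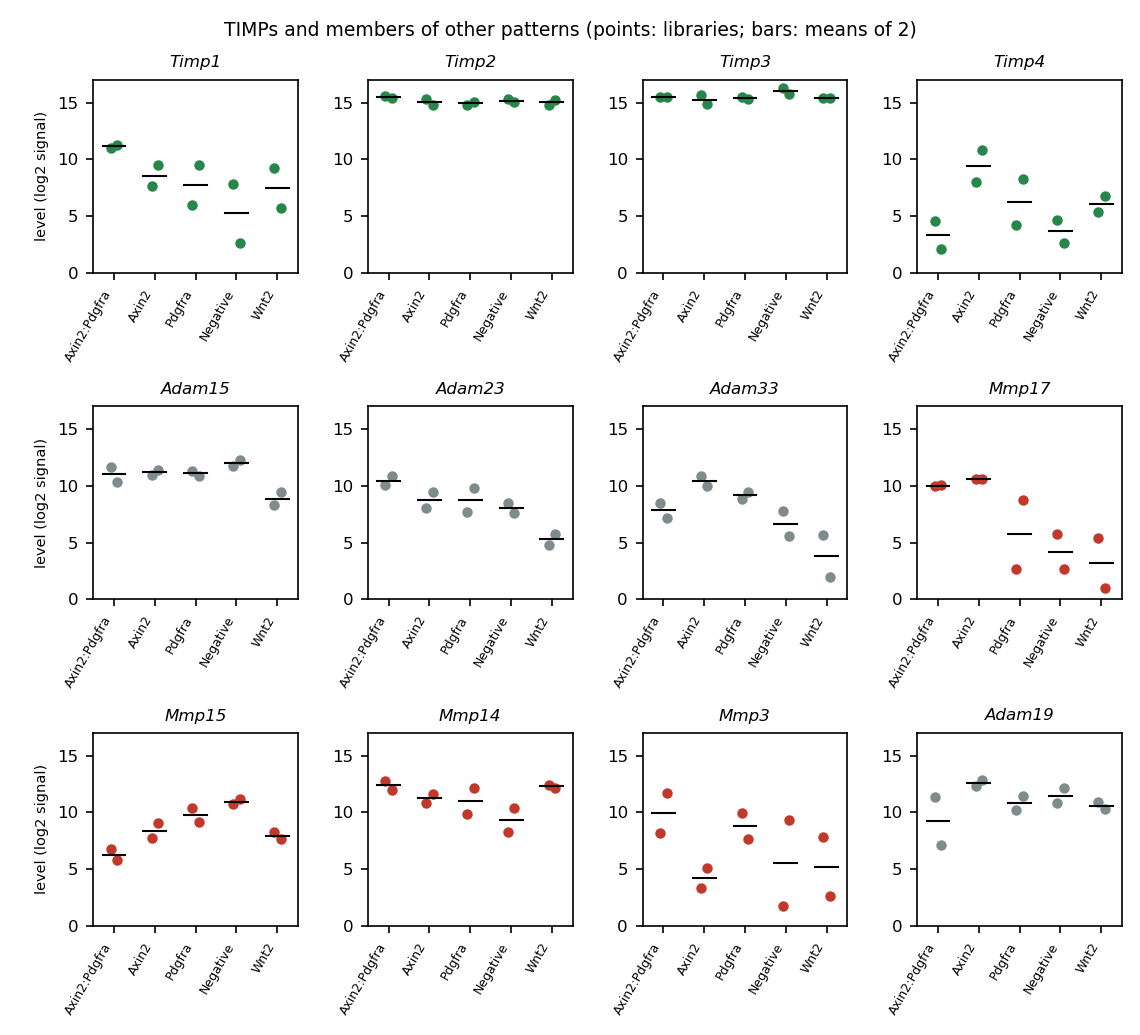
Log2 level of the 4 TIMP genes and of 8 members with other patterns, by lineage; points are libraries and bars are means of 2. Timp2 and Timp3 stay within 14.77 to 16.32 in all libraries, while Adam15, Adam23 and Adam33 have their lowest means in Wnt2.

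Wnt2 cells differed from the other 4 groups in few members. Against the mean of those groups, Adamts9 (1.60 ± 0.30, adjusted p = 0.0111) and Adamts15 (2.15 ± 0.51, adjusted p = 0.0432) were higher and Adam15 was lower (-2.45 ± 0.50, adjusted p = 0.0191). This made 2 of 45 members higher, against 0.719% of all genes, and 1 lower, against 1.44%, with 2.16% in either direction. Adam15, a membrane ADAM with an integrin-binding motif, read 8.33 and 9.44 in Wnt2 and 10.37 to 12.28 in the other 8 libraries, with no overlap. For Adamts15 the Wnt2 values given above also lay beyond all 8 other libraries. At 2 libraries against 8, 1 member was higher without overlap (5.47% of all genes) and 3 lower (4.11%): Adam15, Adam23 and Mmp23.

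Adam23, an adhesion receptor without protease activity, read 4.83 and 5.77 in Wnt2 and 7.65 to 10.87 elsewhere (-3.72 ± 0.93, adjusted p = 0.0571). Adam33, known from airway smooth muscle and asthma genetics, read 5.64 and 1.95 in Wnt2, 10.83 and 10.03 in Axin2, 8.85 and 9.48 in Pdgfra, 8.52 and 7.18 in Axin2:Pdgfra, and 7.8 and 5.55 in Negative (-4.73 ± 1.19, adjusted p = 0.0574). Mmp23, a membrane-anchored MMP, read 5.77 and 3.7 in Wnt2 and 6.12 to 10.43 elsewhere (-3.35 ± 1.19, adjusted p = 0.206). In the same comparison 7 of 10 pericyte markers and 4 of 8 smooth muscle markers were lower, and their part in the members' levels was not tested. The count of 3 was 0 without Wnt2 1 or Wnt2 2, 1 without Pdgfra 1 and 6 without Negative 2.

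No member passed for the Axin2 label (mean of Axin2:Pdgfra and Axin2 minus mean of Pdgfra and Negative): 0 by limma at an adjusted p under 0.05 with 1.64% of all genes called, 1.14% as lower. At an unadjusted p under 0.05 there were 10 members, against 17.5% of all genes. Nearest were Mmp15 (-3.03 ± 0.72, adjusted p = 0.0509), Mmp2 (1.01 ± 0.26, adjusted p = 0.0679) and Mmp17 (5.35 ± 1.48, adjusted p = 0.0781). Mmp17 (MT4-MMP), held in the membrane by a lipid anchor, read 9.95 and 10.11 in Axin2:Pdgfra and 10.61 in both Axin2 libraries. It read 2.67 and 8.78 in Pdgfra and 5.76 in Negative 0 and was listed at the lowest value in Negative 2 and Wnt2 2. All 4 Axin2-labelled libraries lay above the other 6. The count was 6 without Negative 0 and 1 without Axin2:Pdgfra 1 or Pdgfra 2.

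Axin2:Pdgfra minus Pdgfra passed 0 members by limma (0.0423% of all genes called; 4 members at an unadjusted p under 0.05, against 12.7%) and 1 without Axin2:Pdgfra 1. Axin2 minus Negative passed 0 (0.6% called; 13 members at an unadjusted p under 0.05, against 14.2%) and 3 without Negative 0.

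**Figure D5:**
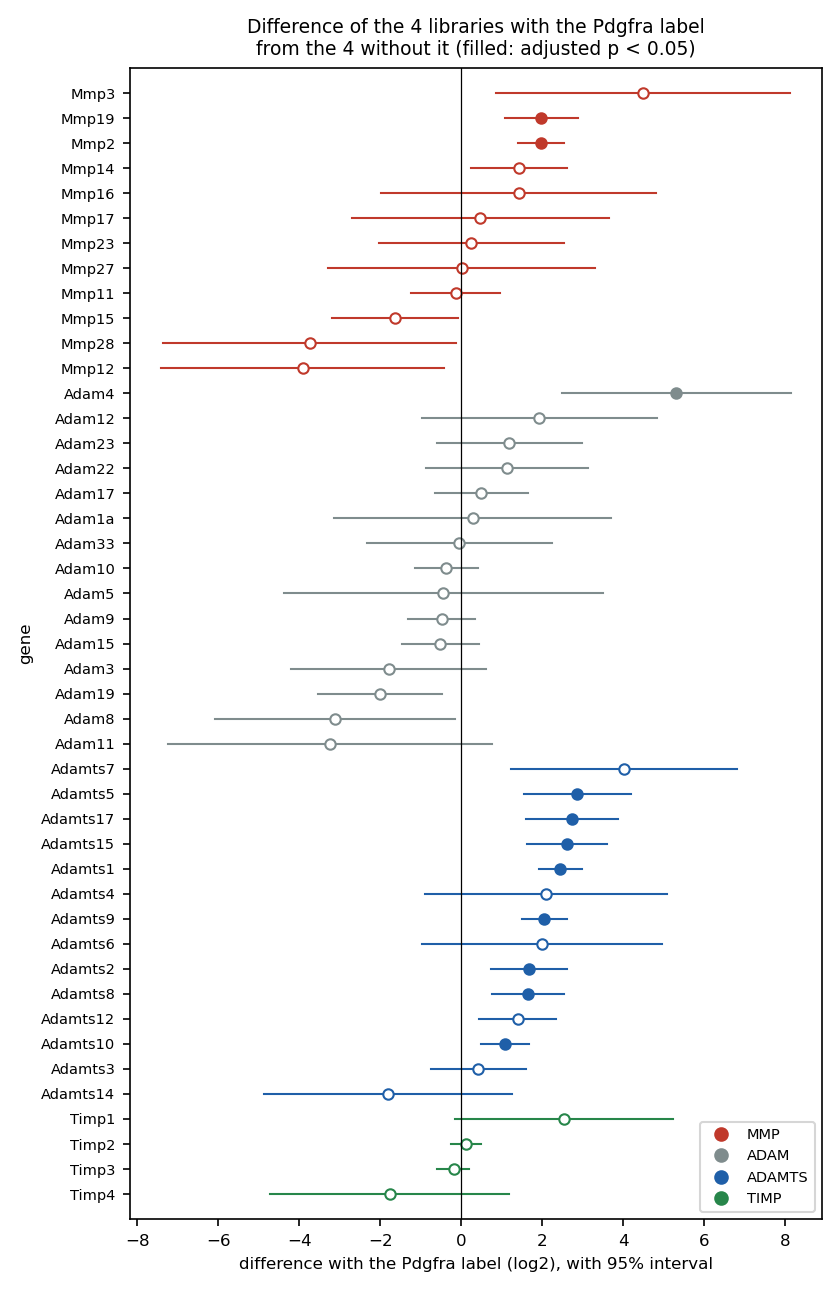
Pdgfra label difference (log2, horizontal axis) of the 45 tested members with 95% intervals, grouped by family; filled points passed an adjusted p of 0.05. Of the 14 ADAMTS genes 13 lie above 0 and 8 passed, while Timp2 and Timp3 lie near 0 with narrow intervals.

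Other genes of the pathway were taken from lists of substrates, inhibitors, activating convertases, ADAMTS-like proteins and partners of Adam10 and Adam17, 51 genes of which 41 were tested. With the Pdgfra label 9 were higher and 4 lower (31.7% called), against 3.55% of all genes higher, 2.93% lower and 6.48% in either direction. The collagens Col1a1, Col1a2 and Col3a1 are also in the fibroblast marker list. Among substrates, 5 of 9 were higher. Vcan (versican), cleaved by Adamts1, Adamts5, Adamts9 and Adamts15, read 13.4 and 13.28 in Axin2:Pdgfra, 12.53 and 12.23 in Pdgfra, 11.06 and 10.87 in Axin2, and 9.26 and 6.47 in Negative. The groups did not overlap, and the difference was 3.45 ± 0.54 (adjusted p = 0.00153).

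Among inhibitors, Reck, a membrane-anchored MMP inhibitor, was lower (-1.50 ± 0.32, adjusted p = 0.012). Reck read 15.07 and 15.18 in Axin2, 14.54 and 13.21 in Negative, 13.95 and 12.63 in Axin2:Pdgfra, and 12.61 and 12.81 in Pdgfra. Pcsk5, a proprotein convertase, was higher (2.47 ± 0.46, adjusted p = 0.00521). The ADAMTS-like proteins, which carry thrombospondin repeats but no protease domain, split: Adamtsl2 was higher (2.74 ± 0.48, adjusted p = 0.00335), and Adamtsl3 (-4.55 ± 0.64, adjusted p = 0.000655) and Thsd4 (-4.50 ± 0.91, adjusted p = 0.00786) were lower. Adamtsl3 read 13.1 and 13.32 in Axin2 and 12.85 and 11.46 in Negative, against 6.85 to 9.54 in the 4 labelled libraries. Tspan15, a tetraspanin partner of Adam10, was lower (-3.58 ± 0.93, adjusted p = 0.0335). It was the only 1 of 7 tested partners that passed, against 6.48% of all genes in either direction. In Wnt2 cells 2 of 41 tested pathway genes were lower and 0 higher, against 1.44% and 0.719% of all genes. They were the convertase Pcsk6 (-6.25 ± 1.25, adjusted p = 0.0179) and the proteoglycan Spock2 (-2.13 ± 0.39, adjusted p = 0.0106).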

How the data were processed

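RNA was extracted with Trizol from FACS-sorted adult mouse lung cells and sequenced with Illumina libraries, per the labels' protocols. The authors deposited 1 log2 signal per gene and library; the log2 scale was inferred from the values, whose near-identical distributions are those of between-library normalization. STAR, limma and the build mm9 are named per the submitters' processing notes; versions, the read counter and the annotation remain not given in the sources used here. Symbols were matched to 14720 of 14854 identifiers, and 134 had none.

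The 14177 genes reaching a log2 signal of 6 in 2 or more libraries entered 1 linear model with a mean per lineage, over all 10 libraries; 5 degrees of freedom were residual. Fits by limma 3.58.1 under R 4.3.3 (lmFit, then eBayes with trend and robust) gave two-sided tests, Benjamini-Hochberg adjusted over all genes within each comparison, with a threshold of 0.05. Differences are given ± SE. The procedure was tested on simulated data. The members, gene lists and tests were chosen with earlier results of these data known. Members were named with values where they passed a test, were TIMPs or were set down as having known roles in matrix turnover or shedding. So were the 3 MMP, ADAM and ADAMTS members per family with the widest ranges of group means among those that passed no test. Adam23, Mmp11 and Adamts3 were given values outside these rules. Alternatives were no filter, a filter at 8, low values raised to 2.67, a replicate block, an index block, eBayes without trend and robust, only the groups compared, and each library left out; leaving out Negative 2 with Wnt2 2, and Axin2:Pdgfra 2 with Negative 2, was added after seeing the data. Promoters came from RefSeq (GRCm38.p6); protein sequences were not used here. One gene of the pathway lists is counted but not reported here by name.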

Additional observations from a re-analysis of the deposited data

How the results depend on the processing

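No difference of a member past a contrast changed sign in the alternatives run. The F-test gives a range of group means, which has no sign to change. Over the contrasts and the F-test, 435 values stayed past the threshold and 168 fell short of it. With eBayes without trend and robust, the count of members was 0 in the F-test, 3 for the Pdgfra label, 0 for Axin2:Pdgfra minus Axin2, 0 for Pdgfra minus Negative and 0 for Wnt2; the cause was not tested. With only the 2 groups in the fit, Pdgfra minus Negative passed 3 members, from fewer samples. With the filter at 8, the Axin2 label passed 1 member and Axin2 minus Negative 1. Without Negative 2 and Wnt2 2 the F-test passed 6. With single libraries left out, counts ran from 4 to 10 in the F-test, 6 to 12 for the Pdgfra label, 0 to 6 for the Axin2 label, 0 to 1 for the interaction, 0 to 6 for Axin2:Pdgfra minus Axin2, 2 to 7 for Pdgfra minus Negative, 0 to 1 for Axin2:Pdgfra minus Pdgfra, 0 to 3 for Axin2 minus Negative and 0 to 6 for Wnt2. Where a group kept 1 library, that library was assumed to vary like the other groups.

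No pairing of the libraries by replicate number was seen: replicate 1 minus 2 differences correlated at -0.06 to 0.03 over 14177 genes in 6 pairs of groups. Negative, numbered 0 and 2, was not among these groups. Such correlations cannot show whether libraries of different groups came from the same animals. With the replicate block the count was 3 for the Axin2 label, 2 for Axin2 minus Negative, 9 in the F-test, 8 for the Pdgfra label, 4 for Axin2:Pdgfra minus Axin2, 5 for Pdgfra minus Negative, 3 for Wnt2 and 0 for the interaction. Negative 0 was the only library numbered 0, so this block absorbed it and left Negative 2 alone for its group. The Pdgfra label calls of Adamts2, Adamts10 and Adam4 ended with this block, as they did without Negative 0. Their differences were then 1.11, 0.93 and 4.84 log2 units. With the second index as a block the Pdgfra label passed 9 members and Axin2:Pdgfra minus Axin2 passed 2. Without counts, depth sets no interval here, and members near the lowest value of a library cannot be ranked below it.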
